A study of Saccharomyces cerevisiae with 14 samples.

Results

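The sirtuins and silencing factors of budding yeast were described here through 10 genes, SIR1, SIR2, SIR3, SIR4, HST1, HST2, HST3, HST4, SUM1 and FOB1. The members were taken by gene symbol, without use of their values, and all 10 were found among the 5886 genes of the expression table. RNA-seq levels were given as FPKM, fragments per kilobase of transcript scaled to the depth of the library, in 14 libraries of log-phase Saccharomyces cerevisiae grown in YPD. The strains were an MSB3 knockout (MSB3Δ), a NIT3 knockout (NIT3Δ), an HSP26 knockout (HSP26Δ) and a TYS1 knockdown (TYS1-DAmP), each with 3 libraries, and the WT with 2 libraries. The labels name the S288C background. The study states that profiling was done in BY4741, MATa his3Δ1 leu2Δ0 met15Δ0 ura3Δ0, alleles that mutants and WT then share. A drug or histidine marker cassette replaced the reading frame in knockouts, and in TYS1-DAmP a KanR cassette placed after the reading frame destabilized the mRNA of this essential gene. They were profiled in a study of replicative longevity, the number of daughters a mother cell makes. The libraries are labelled as biological replicates, and the design text speaks of 3 per group, but only the 2 WT libraries listed were analysed.

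Sir2 is the founding sirtuin, a deacetylase that consumes NAD. With Sir3 and Sir4 it spreads along chromatin from the silent mating-type loci HML and HMR and from telomeres, Sir1 helps to recruit the complex at HML and HMR, and without Sir3 or Sir4 it works in the nucleolus as part of the RENT complex at the ribosomal DNA. Fob1 binds the replication fork barrier of the ribosomal DNA, recruits RENT there and permits the recombination that releases circles, so that loss of SIR2 is known to shorten, and loss of FOB1 to lengthen, replicative lifespan in yeast. Hst1, the closest relative of Sir2, represses middle sporulation genes and the genes of NAD synthesis from tryptophan together with the DNA-binding protein Sum1. Hst2 is mainly cytoplasmic, and Hst3 and Hst4 remove the acetyl group from lysine 56 of histone H3 after S phase.

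The sirtuin family holds related reading frames, and SIR2 and HST1 are shown because fragments of one could be counted for the other. Their coding sequences were 67.7% identical over 1624 aligned positions of the RefSeq assembly of build R64, and the longest run of identical bases between them was 14 bases. Among all other pairs of the 5 sirtuin genes identity was between 54.4% and 56.7%. The most alike stretch of 100 bases had 84 identical and 16 different bases. It lies in the coding exon of SIR2 at chrIV:377451-377550 and of HST1 at chrXV:201047-201146, both on the minus strand, and capitals mark the bases that differ.
SIR2: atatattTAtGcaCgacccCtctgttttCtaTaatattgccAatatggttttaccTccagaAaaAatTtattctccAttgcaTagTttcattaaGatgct
HST1: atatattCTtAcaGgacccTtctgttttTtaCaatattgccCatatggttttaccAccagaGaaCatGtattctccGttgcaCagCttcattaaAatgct
All 10 members have 1 coding exon and none overlaps another annotated gene.

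The targeted genes followed the labels. MSB3 was at 0.02, 0 and 0 FPKM in MSB3Δ, against 15.96 and 19.96 FPKM in WT, and NIT3 at 0.05, 0.28 and 0 FPKM in NIT3Δ, against 270.13 and 270.89 FPKM in WT. HSP26 was at 0.15, 0.08 and 0.08 FPKM in HSP26Δ, against 77.49 and 94.55 FPKM in WT, and TYS1 at 66.19, 71.39 and 82.52 FPKM in TYS1-DAmP, against 512.28 and 562.62 FPKM in WT. The steps between low FPKM values matched 22400000 to 26550000 fragments per library. The share of summed FPKM in 136 ribosomal protein genes was 30.1% in MSB3Δ library 1 and 18.1% in NIT3Δ library 2 and between 38.6% and 48.4% in the other 12 libraries, so these 2 cultures stood apart. A change was called with limma at a fold above 1.5 or below 0.7 on the log2(FPKM + 1) scale and an unadjusted p under 0.05, over the 5727 genes whose mean reached 1 FPKM. At these thresholds the share of all genes called higher than WT was 5.67% in HSP26Δ, 3.34% in TYS1-DAmP, 3.93% in MSB3Δ and 4.31% in NIT3Δ. The share called lower was 2.41% in HSP26Δ, 1.64% in TYS1-DAmP, 0.559% in MSB3Δ and 0.506% in NIT3Δ. Over all genes, the median log2 fold change against WT was 0.08 in HSP26Δ, 0.07 in TYS1-DAmP, 0.18 in MSB3Δ and 0.28 in NIT3Δ, and scaling the libraries to a common median ratio brought each to between -0.012 and -0.0027. With that scaling the calls, higher and lower, were 148 and 111 in place of 225 and 32 in MSB3Δ, 146 and 89 in place of 247 and 29 in NIT3Δ, and 247 and 257 in place of 325 and 138 in HSP26Δ.

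Of the 10 members, only SIR2 passed the thresholds against WT, and only in HSP26Δ, where it was lower. No member was called in MSB3Δ, NIT3Δ or TYS1-DAmP, and none was called higher in HSP26Δ. At a Benjamini-Hochberg adjusted p under 0.05 over all genes limma called no member in any mutant, while among all genes it called 0.0349% in HSP26Δ, 0.0873% in TYS1-DAmP, 0.0175% in MSB3Δ and 0.0175% in NIT3Δ. At an unadjusted p under 0.05, before any fold is asked, 1 member passed in HSP26Δ and 0 in each other mutant. The median log2 fold change of the 10 members was 0.20 in HSP26Δ, 0.10 in TYS1-DAmP, 0.15 in MSB3Δ and 0.31 in NIT3Δ, beside the medians of all genes given above. The 95% interval of the fold change stayed within 2-fold either way for 8 members in HSP26Δ, 7 in TYS1-DAmP, 10 in MSB3Δ and 5 in NIT3Δ, so changes beyond 2-fold were compatible with the data for the others.

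**Figure D1:**
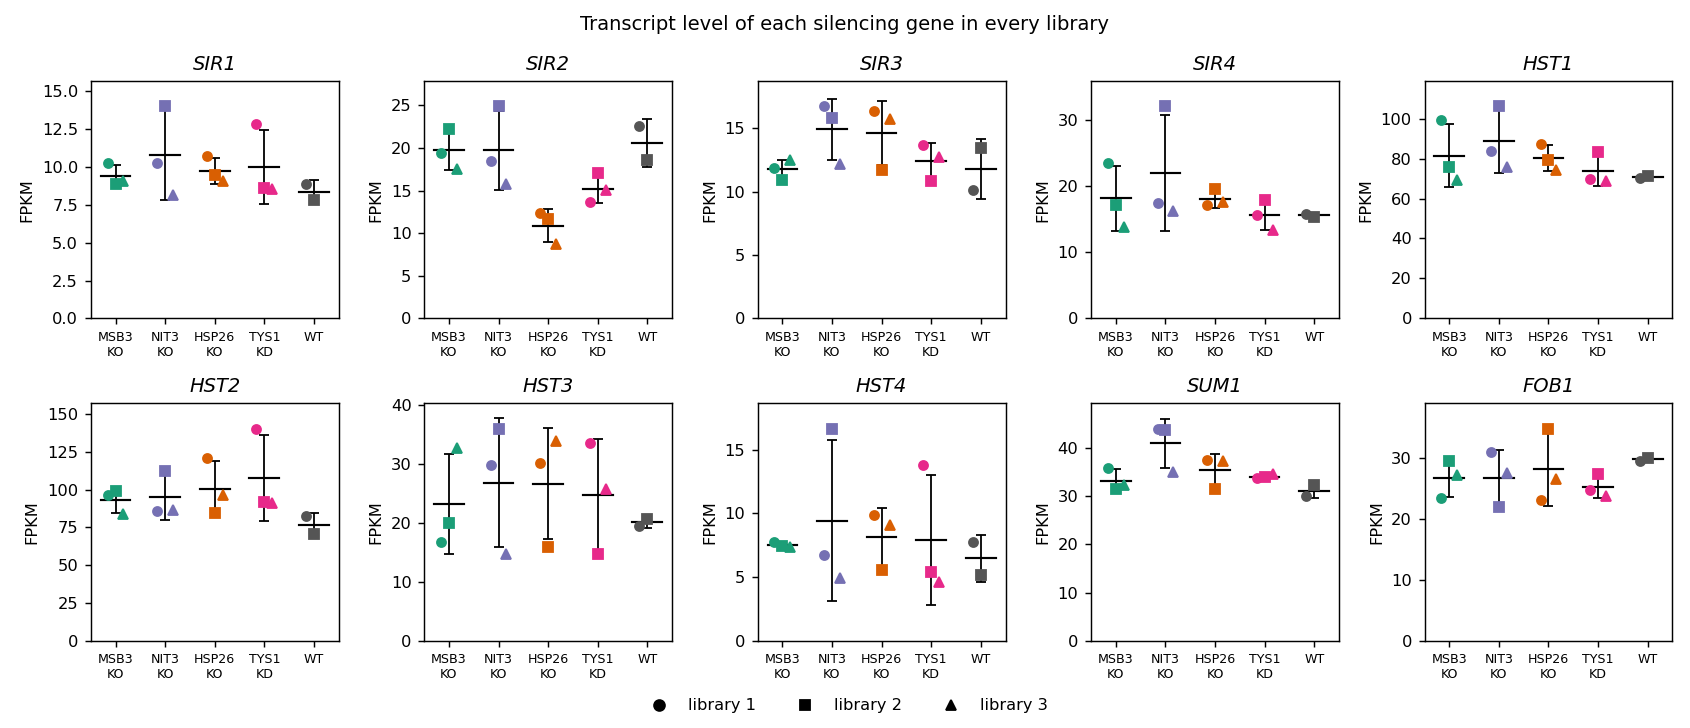
FPKM of the 10 genes on the y axes in each library, with 1 panel per gene, strains on the x axes, symbols for library numbers, a bar at the strain mean and whiskers of 1 SD (n = 3, or 2 in WT). The 3 HSP26Δ libraries of SIR2, between 8.68 and 12.4 FPKM, lie below the other 11 libraries, while the strains overlap in HST3 and HST4.

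SIR2 (YDL042C, chrIV:376757-378445, minus strand) was the member with the clearest difference between strains. It was measured at 12.38, 11.64 and 8.68 FPKM in HSP26Δ, against 22.53 and 18.55 FPKM in WT. The 3 HSP26Δ libraries were therefore all below both WT libraries, as was the case for 13.2% of all genes in that strain. The mean was 10.9 ± 1.96 FPKM in HSP26Δ (SD, n = 3) and 20.5 ± 2.81 FPKM in WT (SD, n = 2). The log2 fold change was -0.86 ± 0.19 (SE), a fold of 0.550 with a 95% interval of 0.402 to 0.751, at an adjusted p of 0.169 by limma. That adjusted p ran from 0.0607 to 0.846 over the alternatives tried. By an exact two-sided permutation test these 3 and 2 libraries cannot give a p below 0.2, the value obtained. Left out in turn, the WT libraries moved the log2 fold change between -0.997 and -0.73 and the call stayed.

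In the other strains SIR2 lay between the HSP26Δ and the WT levels or overlapped WT. It was at 19.42, 22.22 and 17.56 FPKM in MSB3Δ and at 18.51, 24.86 and 15.82 FPKM in NIT3Δ, both ranges overlapping WT. In TYS1-DAmP it was at 13.64, 17.03 and 15.01 FPKM, so that all 3 libraries were below both WT libraries, as were 12.4% of all genes there. The fitted difference in TYS1-DAmP was -0.41 ± 0.18 on the log2 scale (limma adjusted p = 0.614), which did not pass the thresholds, with a 95% interval of the fold from 0.562 to 1.01.

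SIR2 was also lower in HSP26Δ than in the other mutants, a comparison that uses no WT library. The HSP26Δ libraries were all below the lowest of the 9 libraries of MSB3Δ, NIT3Δ and TYS1-DAmP, which was 13.64 FPKM. The share of all genes separated in this way from the other mutants was not counted. The log2 difference between the HSP26Δ mean and the mean of the other 3 mutants was -0.69 ± 0.17 (limma adjusted p = 0.706), a fold of 0.622 with a 95% interval of 0.479 to 0.807. An exact two-sided permutation test over the 220 arrangements of the 3 and 9 libraries gave p = 0.00909, the smallest it can give. Among the members it was run for SIR2 alone, and this p was not adjusted for that choice. SIR2 was the 1 member past the thresholds in this contrast, in which 3.53% of all genes were called in either direction. In the same contrast of each other mutant with the remaining 3 no member was called, and 0.908% of all genes were called in MSB3Δ, 2.95% in NIT3Δ and 1.76% in TYS1-DAmP. Across the 5 strains, the limma F-test ranked SIR2 number 57 of 5727 genes (adjusted p = 0.528). No member passed an adjusted p of 0.05 in that test, which 0.157% of all genes did.

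**Figure D2:**
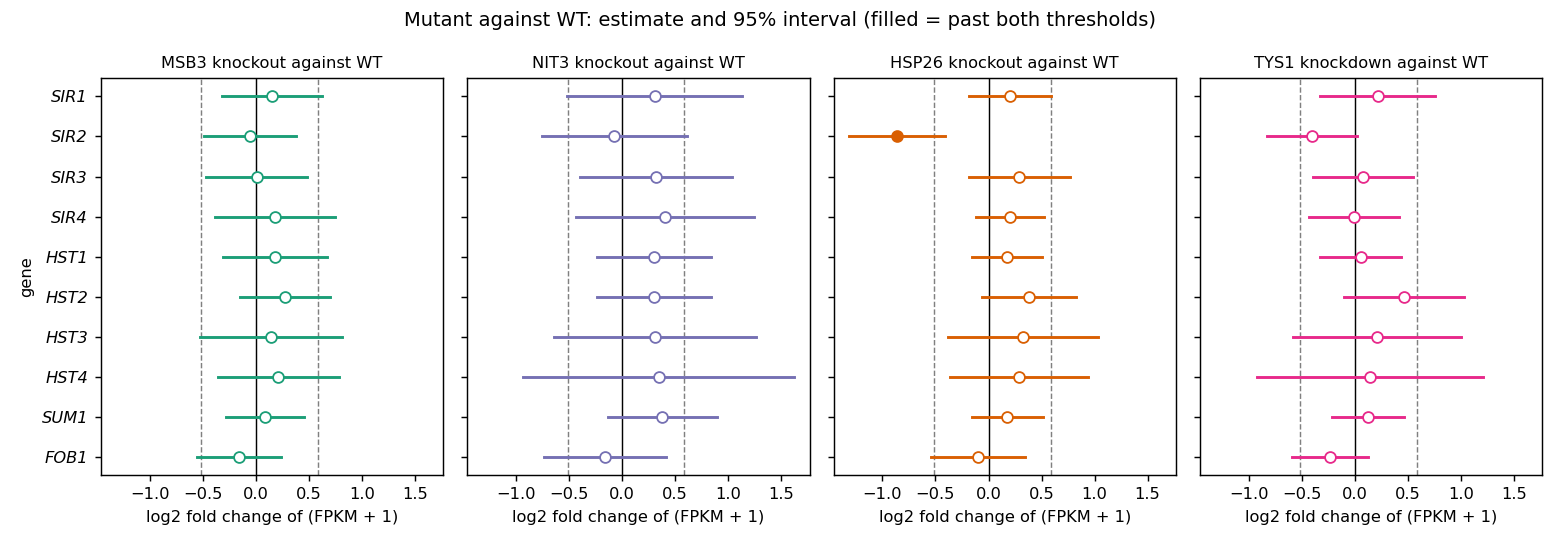
Log2 fold change of (FPKM + 1) against WT on the x axes for the 10 genes on the y axis, with 1 panel per mutant, points for the estimates, lines for the 95% intervals and dashed lines at folds of 1.5 and 0.7. The filled point, SIR2 in HSP26Δ at -0.86, is the 1 estimate past both thresholds.

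The promoter of SIR2, from 250 bases before to 50 bases after the start codon's first base, is shown because SIR2 was the only member called. It lies at chrIV:378396-378695 on the minus strand. The inverted heat shock repeat TTCNNGAA, in which N is any base, occurred once on both strands, from 71 to 64 bases before the start codon, and is in capitals.
SIR2 promoter: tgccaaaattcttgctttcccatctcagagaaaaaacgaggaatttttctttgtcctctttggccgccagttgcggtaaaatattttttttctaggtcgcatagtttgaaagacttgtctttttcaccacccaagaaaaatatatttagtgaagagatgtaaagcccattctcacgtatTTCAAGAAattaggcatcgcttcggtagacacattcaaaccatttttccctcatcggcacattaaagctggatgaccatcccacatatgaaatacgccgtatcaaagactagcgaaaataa
The same 8-letter pattern was present in 12.8% of 6020 promoters of that length, and among the 10 members in SIR2. The other order of the repeat, GAANNTTC, was present in 11.8% of promoters and among the members in SIR4, from 43 to 36 bases before its start codon on both strands. SIR4 was not called in HSP26Δ. The stress response element AGGGG, searched on both strands, was absent from the SIR2 window and present in 21.6% of all such windows. It was in those of 6 members, SIR3, SIR4, HST2, HST4, SUM1 and FOB1. In SUM1 the match lay after the start codon, in the coding bases of the window. A match of letters is not a measured binding site, and a link between these patterns and the SIR2 level in HSP26Δ was not tested.

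Measured within each library, SIR2 was also low relative to SIR4 and to HST1 in HSP26Δ. The ratio of SIR2 to SIR4 was 0.603 ± 0.116 in HSP26Δ (SD, n = 3) and 1.32 ± 0.151 in WT (SD, n = 2). It was 1.13 ± 0.264 in MSB3Δ, 0.935 ± 0.145 in NIT3Δ and 0.984 ± 0.129 in TYS1-DAmP (SD, n = 3 each). The ratio of SIR2 to HST1 was 0.135 ± 0.0163 in HSP26Δ and 0.290 ± 0.0432 in WT. The 3 HSP26Δ libraries were below the 9 libraries of the other mutants in both ratios, and the exact permutation test gave p = 0.00909 for each, again the smallest value possible. These ratios do not depend on how libraries are scaled, but they share the SIR2 values with the tests above.

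**Figure D3:**
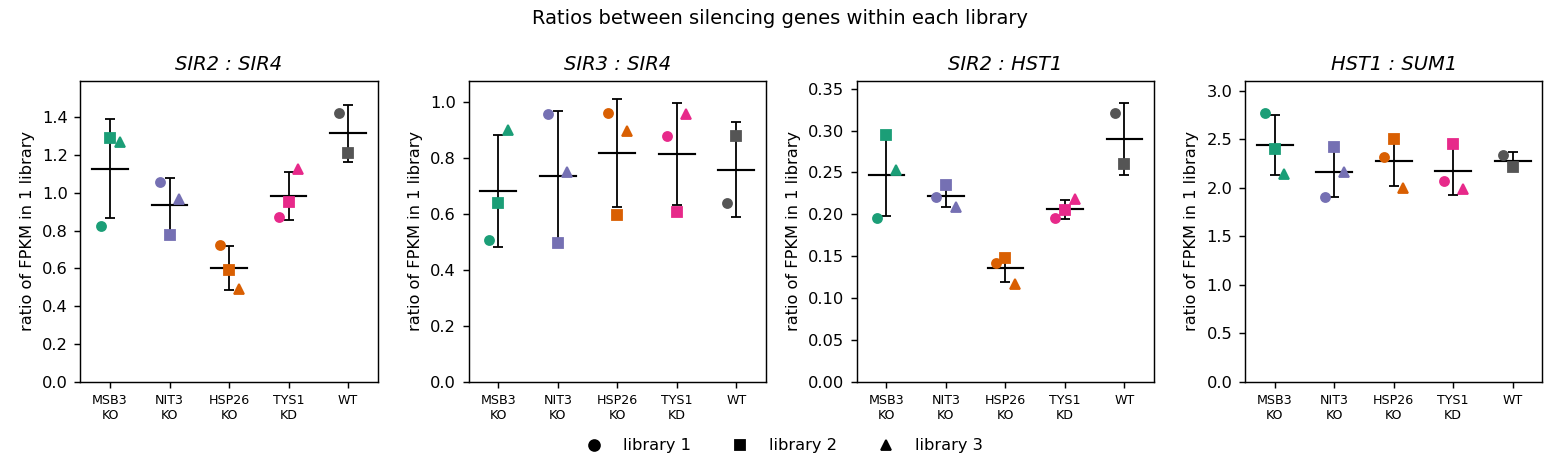
Ratios of FPKM between members within each library on the y axes, with strains on the x axes, bars at the strain means and whiskers of 1 SD. The ratio of SIR2 to SIR4 lies between 0.493 and 0.724 in HSP26Δ, below the other strains, whereas the ratios of SIR3 to SIR4 and of HST1 to SUM1 overlap between strains.

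The other Sir proteins' genes did not share this pattern. SIR4 (YDR227W, chrIV:917571-921647), which encodes the scaffold of the complex, was at 17.09, 19.66 and 17.62 FPKM in HSP26Δ, against 15.84 and 15.34 FPKM in WT, and its log2 fold change there was 0.20 ± 0.14 (limma adjusted p = 0.451). The highest SIR4 value, 32.07 FPKM, was in NIT3Δ library 2, whose sister libraries had 17.47 and 16.32 FPKM. In MSB3Δ it was at 23.55, 17.18 and 13.85 FPKM and in TYS1-DAmP at 15.61, 17.89 and 13.34 FPKM, both spanning WT.

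SIR3 (YLR442C, chrXII:1019315-1022251, minus strand), which encodes the nucleosome-binding subunit, had 16.38, 11.71 and 15.76 FPKM in HSP26Δ and 16.72, 15.85 and 12.21 FPKM in NIT3Δ, against 10.10 and 13.45 FPKM in WT. It had 11.89, 10.96 and 12.46 FPKM in MSB3Δ and 13.68, 10.86 and 12.74 FPKM in TYS1-DAmP. The ranges of all 4 mutants overlapped WT.

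SIR1 (YKR101W, chrXI:640540-642504) ranged from 8.13 to 13.99 FPKM in the mutants, against 7.79 and 8.90 FPKM in WT. It lies 24312 bases from the right end of its chromosome, the nearest of all members to a telomere. The 3 HSP26Δ libraries, at 10.69, 9.48 and 9.04 FPKM, were above both WT libraries with a log2 fold change of 0.20 ± 0.16 (limma adjusted p = 0.528).

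HST1 and SUM1, whose products act in 1 repressor complex, had the smallest SDs of log2(FPKM + 1) within strains, 0.19 and 0.12. HST1 (YOL068C, chrXV:200368-201879, minus strand) ranged from 68.88 to 106.03 FPKM in the mutants, against 70.27 and 71.48 FPKM in WT. SUM1 (YDR310C, chrIV:1081128-1084316, minus strand) had 44.11, 43.88 and 35.15 FPKM in NIT3Δ, against 30.06 and 32.30 FPKM in WT, with a log2 fold change of 0.38 ± 0.22 (limma adjusted p = 0.563), and had the narrowest range of the 10 genes, 1.47-fold over 14 libraries. The ratio of HST1 to SUM1 was between 2.16 and 2.44 in the means of the 4 mutants and 2.28 in WT, with SDs of 0.244 to 0.312 in the mutants.

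HST2 (YPL015C, chrXVI:525810-526883, minus strand) was the 1 member whose libraries lay above both WT libraries in all 4 mutants. It had 121.06, 84.75 and 96.40 FPKM in HSP26Δ, 140.49, 91.85 and 91.17 FPKM in TYS1-DAmP, 96.26, 99.39 and 83.59 FPKM in MSB3Δ and 85.88, 112.26 and 86.77 FPKM in NIT3Δ, against 82.40 and 70.78 FPKM in WT. The log2 fold changes, which share the WT libraries, were 0.38 ± 0.19 in HSP26Δ, 0.46 ± 0.24 in TYS1-DAmP, 0.28 ± 0.18 in MSB3Δ and 0.30 ± 0.22 in NIT3Δ, and none passed the thresholds. Such separation was common, since all 3 mutant libraries were above both WT libraries for 27.6% of genes in HSP26Δ, 20.4% in TYS1-DAmP, 26.1% in MSB3Δ and 38.6% in NIT3Δ. Among the members 4 genes lay above WT in this way in HSP26Δ, 2 in TYS1-DAmP, 1 in MSB3Δ and 4 in NIT3Δ. All 3 libraries lay below WT for 0 members in MSB3Δ and 0 in NIT3Δ, where 8.08% and 9.57% of genes did so, for SIR2 in HSP26Δ, and for SIR2 and FOB1 in TYS1-DAmP.

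FOB1 (YDR110W, chrIV:676102-677802) was at 24.72, 27.37 and 23.77 FPKM in TYS1-DAmP, against 29.60 and 30.09 FPKM in WT. Its log2 fold change of -0.23 ± 0.15 (limma adjusted p = 0.662) did not pass the thresholds, and it overlapped WT in the 3 knockouts, where it ranged from 21.94 to 34.91 FPKM. The ratio of SIR2 to FOB1 was 0.398 ± 0.118 in HSP26Δ and 0.689 ± 0.102 in WT.

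HST3 and HST4 varied more between cultures of 1 strain than between strains. HST3 (YOR025W, chrXV:378219-379562) had 30.10, 15.93 and 33.86 FPKM in HSP26Δ, 33.62, 14.70 and 25.71 FPKM in TYS1-DAmP, 16.72, 20.06 and 32.76 FPKM in MSB3Δ and 29.75, 36.01 and 14.71 FPKM in NIT3Δ, against 19.45 and 20.70 FPKM in WT. HST4 (YDR191W, chrIV:842337-843449) ranged from 4.58 to 16.65 FPKM in the mutants, against 7.75 and 5.15 FPKM in WT. The SD of log2(FPKM + 1) within strains was 0.54 for HST3 and 0.57 for HST4, 4.04 and 4.26 times the SD among the strain means, and SIR2 and SUM1 were the members with a smaller SD within strains than among them, by ratios of 0.619 and 0.850. Without HSP26Δ library 2, HST3 was called higher in HSP26Δ at a log2 fold change of 0.64, and without NIT3Δ library 3 it was called higher in NIT3Δ at 0.68, against 0.32 and 0.31 with all libraries.

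Both genes moved with genes of mitosis, as did SIR1. Over the 14 libraries HST4 correlated with the summed FPKM of 11 G2/M genes, among them the mitotic cyclin gene CLB2, at Pearson's r = 0.90 (permutation p = 4e-05, adjusted p = 0.0013) and Spearman's rho = 0.86 (permutation p = 0.00022, adjusted p = 0.0078). For HST3 the values were r = 0.69 (permutation p = 0.00366, adjusted p = 0.0216) and rho = 0.77 (permutation p = 0.00201, adjusted p = 0.0200). Without the 2 libraries farthest from the median sum, r was 0.81 for HST4 and 0.60 for HST3, and within strains, as deviations from strain means, it was 0.92 and 0.72. After median-ratio scaling r was 0.82 for HST4 and 0.72 for HST3. Within MSB3Δ, however, HST3 was highest in library 3, at 32.76 FPKM, where the sum was the lowest of that strain, 211.24 FPKM. For SIR1 the relation was at r = 0.82 (permutation p = 0.00023, adjusted p = 0.0027) and rho = 0.75 (permutation p = 0.00313, adjusted p = 0.0226), at 0.61 without the 2 farthest libraries, at 0.86 within strains and at 0.47 after scaling. For SIR4 it was at r = 0.69 (permutation p = 0.0142, adjusted p = 0.0485) and rho = 0.35 (permutation p = 0.227, adjusted p = 0.351), and at 0.25 without the 2 farthest libraries, so that it rested on those libraries. HST4 and SIR1 were also related to the ribosomal protein share, at r = -0.70 for HST4 (permutation p = 0.00841, adjusted p = 0.0364) and r = -0.77 for SIR1 (permutation p = 0.00443, adjusted p = 0.024). After scaling these were -0.47 and -0.06. Which of these library measures the genes follow was not tested. The p-values were adjusted over 65 relations, the 45 pairs of members and each member with the G2/M sum and the ribosomal protein share.

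**Figure D4:**
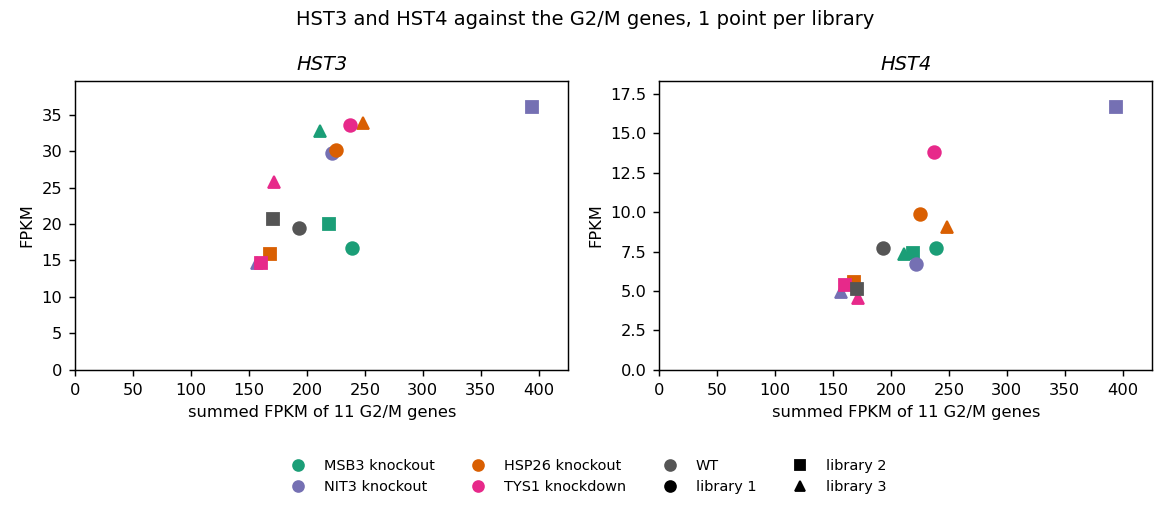
FPKM of HST3 and HST4 on the y axes against the summed FPKM of 11 G2/M genes on the x axes, with 1 point per library, colours for strains and symbols for library numbers. NIT3Δ library 2 is highest on every axis, at 394.1 summed FPKM. MSB3Δ does not follow the trend in HST3, which is 16.72, 20.06 and 32.76 FPKM at sums of 238.92, 218.62 and 211.24 FPKM. Its HST4 values lie close together, from 7.32 to 7.75 FPKM.

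The promoters of HST3 and HST4 are shown because their levels moved together over libraries (r = 0.67, permutation p = 0.00727, adjusted p = 0.0338). By ranks the pair did not pass after adjustment (rho = 0.63, permutation p = 0.0177, adjusted p = 0.0721), and r was 0.57 after median-ratio scaling. HST3 had a higher r with SIR3, 0.74, and HST4 had a higher r with SIR1, 0.89, and with HST2, 0.77. The heptamer CGGGTAA, a core letter pattern of the general regulatory factor Reb1, occurred on the plus strand from 216 to 210 bases before the start codon of HST3 (chrXV:377969-378268) and on the minus strand from 177 to 171 bases before that of HST4 (chrIV:842087-842386). Both windows are plus strand of build R64, with the match to CGGGTAA in capitals. The HST4 window also holds AGGGG, in lower case, from 132 to 128 bases before the start codon.
HST3 promoter: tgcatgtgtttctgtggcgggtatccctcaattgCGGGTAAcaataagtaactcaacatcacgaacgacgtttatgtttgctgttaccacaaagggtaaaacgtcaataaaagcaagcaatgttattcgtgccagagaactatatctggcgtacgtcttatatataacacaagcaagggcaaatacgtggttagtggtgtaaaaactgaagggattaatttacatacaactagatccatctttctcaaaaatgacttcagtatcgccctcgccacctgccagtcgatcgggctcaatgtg
HST4 promoter: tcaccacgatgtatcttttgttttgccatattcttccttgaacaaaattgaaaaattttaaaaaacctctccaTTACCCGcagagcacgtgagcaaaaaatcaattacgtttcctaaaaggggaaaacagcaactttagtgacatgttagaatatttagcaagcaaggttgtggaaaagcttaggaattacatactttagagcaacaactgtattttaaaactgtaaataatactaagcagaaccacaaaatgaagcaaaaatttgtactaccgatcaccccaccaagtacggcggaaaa
That pattern was present in 7.06% of the 6020 promoters and in no other member. Neither window held the forkhead pattern GTAAACA, present in 6.53% of all promoters, or the MCB pattern ACGCGT of G1/S genes, present in 3.06%, on either strand. Both windows also held CACAAA, the core of the middle sporulation element, in lower case. It lay from 163 to 158 bases before the start codon of HST3 and from 6 to 1 before that of HST4. CACAAA was present in 18.8% of all promoters and in 5 members, HST1, HST3, HST4, SUM1 and FOB1.

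Of the 45 pairs of members, 33 had a positive r, and 9 passed an adjusted p of 0.05. After median-ratio scaling 22 of the 45 had a positive r, so the mostly positive sign depended on the scaling. SIR4 with HST1 was the highest at r = 0.91 (permutation p = 4e-05, adjusted p = 0.0013; rho = 0.85, permutation p = 0.00024, adjusted p = 0.0078), but after median-ratio scaling r was 0.33 (permutation p = 0.252). At the deposited scale SIR4 and HST1 also had the strongest relation to the ribosomal protein share. It was at r = -0.88 for SIR4 (permutation p = 0.0012) and -0.87 for HST1 (permutation p = 0.00021). Without MSB3Δ library 1 and NIT3Δ library 2 these were -0.26 and -0.55, and HST2 had the strongest at -0.74. After median-ratio scaling they were -0.62 and 0.08, and FOB1 had the strongest at 0.93. For FOB1 the deposited scale gave 0.67 (permutation p = 0.006, adjusted p = 0.03). SIR3 with SUM1 was at r = 0.82 (permutation p = 0.00025, adjusted p = 0.0027; rho = 0.76, permutation p = 0.00223, adjusted p = 0.0200), at 0.86 after scaling and at 0.76 without the 2 libraries farthest from the median of SIR3. SIR1 with HST4 was at r = 0.89 (permutation p = 0.0001, adjusted p = 0.0022; rho = 0.81, permutation p = 0.00074, adjusted p = 0.0160), at 0.71 after scaling and at 0.66 without the 2 libraries farthest from the median of SIR1. FOB1 had a negative r in all 9 of its pairs at the deposited scale and in 5 of the 9 after median-ratio scaling. Without MSB3Δ library 1 and NIT3Δ library 2 its r with SIR4 was 0.51, against -0.31 with all libraries.

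In order of level, as the mean of the 5 strain means in FPKM, a measure per length, the genes were HST2 at 94.6, HST1 at 79.0, SUM1 at 35.0, FOB1 at 27.4, HST3 at 24.3, SIR4 at 17.9, SIR2 at 17.2, SIR3 at 13.1, SIR1 at 9.65 and HST4 at 7.90. Only the steps from HST1 to SUM1 and from SIR3 to SIR1 kept their order in all 14 libraries. For HST2 and HST1, FOB1 and HST3, HST3 and SIR4, SIR4 and SIR2, and SIR2 and SIR3, the mean log2 ratio was smaller than its SD over libraries. SIR2 thus lay above 19.5% of all genes by mean level, and HST4 above 8.89%. By the recovered fragment totals HST4 rested on 111.7 to 387.6 fragments a library and SIR2 on 337.7 to 923.1, so that counting alone would give an error of 9.46% and 5.44% at the lowest values.

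The genes whose levels over the 14 libraries were most like SIR2 were DCG1 at r = 0.89, RNH201, the catalytic subunit of RNase H2, at 0.88, and RTT109, the acetyltransferase for lysine 56 of histone H3 that Hst3 and Hst4 oppose, at 0.87. These are descriptions over libraries that share a strain structure. After median-ratio scaling RTT109 ranked first, RNH201 second and DCG1 behind VEL1 at r = 0.84. As deviations from strain means RNH201 was at r = 0.90, number 3 of all genes behind YNL034W and YCS4, whereas RTT109 and DCG1 were numbers 222 and 224, both at 0.72. RTT109 had 14.78, 12.16 and 13.36 FPKM in HSP26Δ, against 20.58 and 18.28 FPKM in WT, a log2 difference of -0.50 ± 0.15 (limma adjusted p = 0.258) that missed the fold threshold. DCG1 was called lower in HSP26Δ at -1.02 ± 0.31 (limma adjusted p = 0.264), with 6.33, 9.97 and 4.08 FPKM, against 14.91 and 13.15 FPKM in WT. RNH201 ranged from 22.77 to 34.02 FPKM in HSP26Δ and was at 44.69 and 33.45 FPKM in WT, and it was not called.

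Among genes that work with the members few were called. Of 29 Sir loading and heterochromatin factors, 13 RENT and ribosomal DNA partners, 7 subunits of the Hst1 complexes and 6 factors of H3 lysine 56 acetylation, none passed the thresholds in any mutant. In HSP26Δ the median log2 fold changes of these lists were -0.01, -0.04, 0.11 and 0.08, beside 0.08 over all genes.

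PNC1, the nicotinamidase that starts NAD salvage and removes nicotinamide, an inhibitor of Sir2, was the 1 gene of 9 in NAD salvage and uptake that was called, and it was called higher in each mutant. It had 1957.16, 1215.17 and 1767.53 FPKM in HSP26Δ, 2187.85, 1444.34 and 1486.00 FPKM in TYS1-DAmP, 2480.96, 1456.16 and 1801.29 FPKM in MSB3Δ and 1743.30, 4616.95 and 2150.93 FPKM in NIT3Δ, against 892.99 and 1040.98 FPKM in WT. All 12 mutant libraries were thus above both WT libraries. The share of all genes called higher was between 3.34% in TYS1-DAmP and 5.67% in HSP26Δ. The log2 fold change was 0.74 ± 0.24 in HSP26Δ (limma adjusted p = 0.274), 0.80 ± 0.22 in TYS1-DAmP (adjusted p = 0.535), 0.95 ± 0.27 in MSB3Δ (adjusted p = 0.652) and 1.42 ± 0.48 in NIT3Δ (adjusted p = 0.563), with the WT libraries shared by the comparisons. Its promoter (chrVII:427898-428197, minus strand) is shown because PNC1 was called in every mutant. The stress response element AGGGG, in capitals, occurred at 234 to 230 and at 228 to 224 bases before the start codon. The 6 members whose windows also held this pattern were not called in any mutant.
PNC1 promoter: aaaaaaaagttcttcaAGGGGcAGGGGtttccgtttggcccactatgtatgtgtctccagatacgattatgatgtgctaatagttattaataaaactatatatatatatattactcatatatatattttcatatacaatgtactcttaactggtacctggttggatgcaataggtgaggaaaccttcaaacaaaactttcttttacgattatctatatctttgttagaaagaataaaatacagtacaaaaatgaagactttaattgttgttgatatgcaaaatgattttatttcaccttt

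Few of the genes that Hst1 and Sum1 repress were called lower, and none was called higher. Over all genes the share called lower was 2.41% in HSP26Δ and 0.559% in MSB3Δ. Of 5 genes of NAD synthesis from tryptophan, BNA4 was called lower in HSP26Δ and in MSB3Δ. BNA4 encodes kynurenine monooxygenase and had 25.77, 38.44 and 23.85 FPKM in HSP26Δ and 33.43, 48.19 and 30.07 FPKM in MSB3Δ, against 59.25 and 56.34 FPKM in WT. Its log2 fold changes were -0.98 ± 0.21 in HSP26Δ (limma adjusted p = 0.166) and -0.65 ± 0.23 in MSB3Δ (limma adjusted p = 0.652). Of 18 sporulation genes repressed by Sum1, SPS1 and SSP2 were called lower in HSP26Δ and 0 were called in the other mutants. SPS1, a sporulation kinase gene, had 0.97, 0.84 and 0.94 FPKM in HSP26Δ, against 2.30 and 1.71 FPKM in WT, levels of few fragments.

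**Figure D5:**
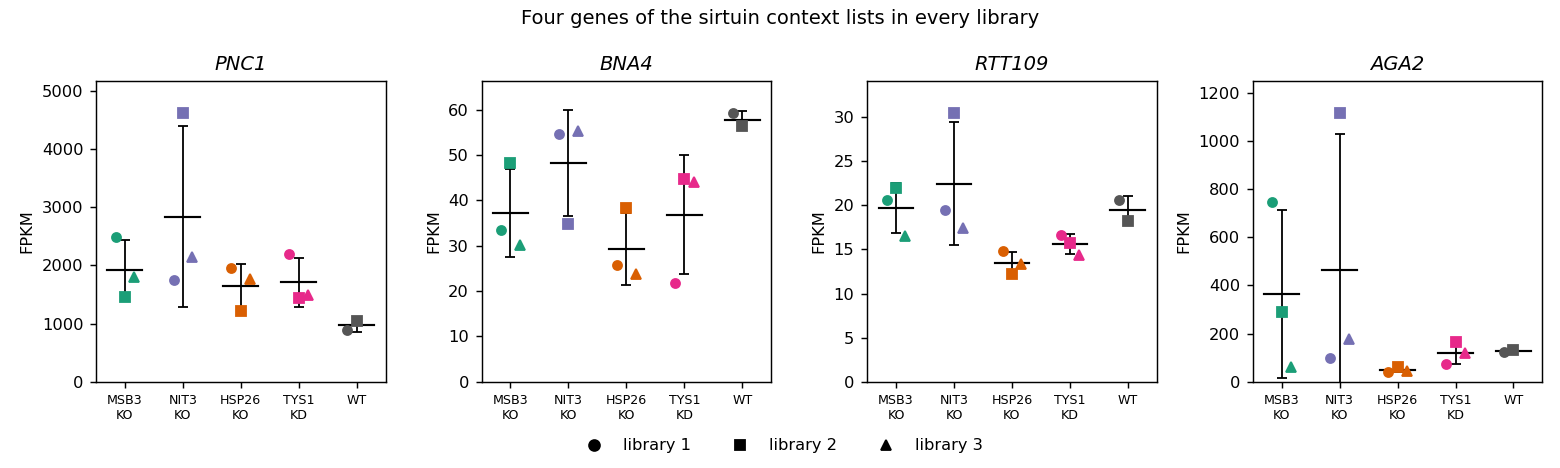
FPKM of PNC1, BNA4, RTT109 and AGA2 on the y axes in each library, with strains on the x axes, symbols for library numbers, bars at the strain means and whiskers of 1 SD. PNC1 lies above and BNA4 below both WT libraries in all 12 mutant libraries, and AGA2 reaches 1116.25 FPKM in NIT3Δ library 2.

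The genes at the silent mating-type loci share sequence with the active MAT locus, which limits what their levels show. HMLALPHA1, the silent alpha1 gene, was listed at 0 in 13 of 14 libraries and at 0.21 FPKM in HSP26Δ library 2, the worth of 2.02 fragments. The subtelomeric gene YFR057W was listed at 0 in 13 libraries and at 0.26 FPKM in MSB3Δ library 2. A level of up to 0.350 FPKM for HMLALPHA1 and 0.431 FPKM for YFR057W lies within the 3 fragments that a count of 0 allows in the shallowest library, counting error only. For HMLALPHA1, whose sequence occurs 2 times in the reference, this assumes that its fragments were counted for it, which is not known. HMLALPHA2 had 109.12 to 349.10 FPKM and HMRA2 18.79 to 51.00 FPKM, but all 360 bases of HMRA2 are identical to part of HMLALPHA2, and HMLALPHA1 and HMLALPHA2 are identical to the alpha genes at MAT in the reference, so these values cannot be assigned to a silent locus. HMRA1, the silent a1 gene, had 191.15 to 731.87 FPKM in all 14 libraries. Its sequence occurs 1 time in the reference, whose MAT locus carries the alpha genes, whereas in a MATa strain the a1 gene is also expressed from MAT, and these sources cannot be told apart.

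Genes specific to a cells and to alpha cells were both checked against the MATa genotype of the parent. Of 4 a-cell genes measured, STE2, STE6, BAR1 and AGA2, all were above 3 FPKM in every library, with the lowest value, 3.61 FPKM, in BAR1. Of 4 genes of alpha cells, the alpha-factor gene MF(ALPHA)1 was at most 2.13 FPKM, but MF(ALPHA)2 had 4.97 to 10.7 FPKM, the a-factor receptor gene STE3 4.99 to 19.5 FPKM and the agglutinin gene SAG1 10.4 to 27.0 FPKM in all 14 libraries. MET17, absent from BY4741, was at most 0.03 FPKM, while HIS3, of which his3Δ1 removes a part, had 121.58 to 230.93 FPKM. AGA2, an agglutinin subunit gene, was called lower in HSP26Δ at -1.37 ± 0.20 on the log2 scale (limma adjusted p = 0.0888), and BAR1, the protease that degrades alpha-factor, at -1.10 ± 0.33 (limma adjusted p = 0.258). AGA2 had 40.78, 62.48 and 45.79 FPKM in HSP26Δ, against 125.24 and 131.13 FPKM in WT, but also 745.75 FPKM in MSB3Δ library 1 and 1116.25 FPKM in NIT3Δ library 2. Of 11 G2/M genes none was called, and of 8 genes of the M/G1 boundary DSE1, a daughter-cell gene, was called higher in NIT3Δ at 0.60 ± 0.21 (limma adjusted p = 0.563). Over all genes 4.31% were called higher in NIT3Δ. The ribosomal protein share was 38.6%, 45.5% and 41.7% in HSP26Δ and 48.4% and 47.0% in WT, and its part in the lower SIR2 of HSP26Δ was not tested.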

How the data were processed

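RNA was sequenced on a BGISEQ-500 platform. The authors deposited FPKM values for each gene and library, rounded to 2 decimals. The submitters' processing notes name HISAT2 2.1.0, Bowtie2, RSEM 1.3.1, DESeq2 1.4.5 and build R64, without their roles. Here limma 3.58.1 in R 4.3.3 (empirical Bayes, trend and robust) was fitted to log2(FPKM + 1) of genes averaging 1 FPKM or more, for each mutant with the WT libraries, and in 1 fit over the 12 mutant libraries for each mutant with the other 3. An F-test covered all strains. Such fold changes understate those of low genes. P-values were adjusted over the 5727 genes, with 5% as the threshold. All 10 members passed the filter. Fragment totals were found as those at which low values came out whole (within 0.15) for 81.6% to 94.1% of 31 to 66 values per library, with 145 bases taken off each coding length. Correlations used 100000 permutations and exact tests used scipy 1.17.1. Named genes were all members, the targeted genes, in each context list the called genes apart from WT (at most 3 by size), the mating-type and BY4741 checks, and the 3 genes most like SIR2. CLB2 was named as an example of its list. DCG1, RNH201 and RTT109 came from the likeness rule. The members, lists and tests were chosen with earlier results of these data known. Promoters came from RefSeq build R64, matched for 6020 genes. MFA1, MFA2, LEU2 and URA3 were not analysed here. FPKM are relative values, so that a lower share of 1 transcript class raises the others.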

Additional observations from a re-analysis of the deposited data

Results flagged for a closer look

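SIR2 drew attention because it passed the fold and unadjusted p thresholds between HSP26Δ and the other 3 mutants. It did not pass the adjusted p over all genes. The contrast of HSP26Δ with the other 3 mutants, which equals the difference between their changes against WT, was -0.69 on the log2 scale with an SE of 0.17 (limma adjusted p = 0.706 over 5727 genes), and SIR2 was lower in 3 of 3 HSP26Δ libraries than in each of 9 libraries of the other mutants. The exact two-sided permutation p over 220 arrangements was 0.00909, the smallest possible. That test was run only for SIR2 and its ratios in HSP26Δ, and its p was not adjusted for this choice. It also treats libraries of the other 3 mutants as interchangeable, so it adds little to the contrast. The share of all genes separated in this way from the other mutants was not counted. The comparison was made with earlier results of these data known. No group held enough libraries for a test of single outlying values.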

How the results depend on the processing

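The lower SIR2 of HSP26Δ stayed past the thresholds under all 11 alternatives against WT (log2 fold change -0.997 to -0.72) and all 18 against the other 3 mutants (-0.78 to -0.54), the last including one added after the data were seen, without MSB3Δ library 1 and NIT3Δ library 2 (-0.63). Its adjusted p lay between 0.326 and 1.000 in the second comparison. Of 504 member values recomputed, 472 kept direction and call, 2 gained a call and 30 changed sign; no call was lost. Every sign change was of an uncalled value, and the cause was not tested. The counts of called members moved with a library left out: from 0 to 1 in NIT3Δ and from 1 to 2 in HSP26Δ, HST3 being added. Pseudocount 0.1, no filter, a mean of 10 FPKM and 1 fit over all libraries moved no count; at the 10 FPKM filter SIR1 and HST4 were not tested. After scaling to the median ratio, the values that turned were, in MSB3Δ against WT, SIR1 at -0.016, SIR3 at -0.16, HST1 at -0.0041, HST3 at -0.034 and SUM1 at -0.093, in TYS1-DAmP against WT HST1 at -0.023, and in TYS1-DAmP against the other 3 mutants SIR2 at 0.032. The r of SIR4 with HST1 was 0.33 after scaling.

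With the replicate block the values that turned were SIR2 at 0.022, SIR3 at -0.029 and HST3 at -0.12 in MSB3Δ, SIR2 at 0.067 in NIT3Δ and SIR4 at 0.095 in TYS1-DAmP; the block changed no call of a member, and SIR2 in HSP26Δ was at -0.72 (limma adjusted p = 0.0775). Replicate numbers come from titles alone; the deviations of same-numbered libraries correlated at -0.77 to 0.44, above 0.1 in 11 of 26 pairs, so the numbers were not read as pairs. The block moved calls over all genes, higher and lower, to 584 and 97 in NIT3Δ, 955 and 114 in MSB3Δ, 403 and 110 in TYS1-DAmP and 379 and 118 in HSP26Δ.

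With single libraries left out, values that turned spanned, in MSB3Δ, -0.19 to 0.079 for SIR2, -0.18 to 0.20 for SIR3, -0.014 to 0.35 for SIR4, -0.12 to 0.34 for HST3 and -0.042 to 0.47 for HST4. In NIT3Δ they spanned -0.24 to 0.067 for SIR2 and -0.12 to 0.67 for HST4, and in HSP26Δ -0.26 to 0.028 for FOB1. In TYS1-DAmP they spanned -0.11 to 0.27 for SIR3, -0.10 to 0.095 for SIR4, -0.030 to 0.10 for HST1, -0.041 to 0.53 for HST3 and -0.29 to 0.41 for HST4. With 1 WT library the fit takes its spread from the mutant libraries. With 2 WT libraries the SEs of the members against WT were 0.14 to 0.53 on the log2 scale. FPKM cannot show a change in total mRNA per cell.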
